A study of Mus musculus with 4 samples.

Results

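The nuclear-encoded oxidative phosphorylation genes were followed across the cell classes of the mouse trachea. Members were taken by symbol: genes beginning Ndufa, Ndufb, Ndufc, Ndufs, Ndufv, Sdha to Sdhd, Uqcr, Cox4 to Cox8 or Atp5, without processed pseudogenes marked -ps. The rule found 100 features under 99 symbols among 22583 features, and used no measured value. Single-cell RNA sequencing had been done on tracheal cells of mice 5 to 8 months old, all on the 129S6/SvEvTac background. The 4 groups were wild-type mice and 3 lines with central pair defects of the cilium: nm1054, in which Cfap221 is lacking, Cfap54gt/gt, whose Cfap54 is gene-trapped, and bgh, whose Spef2 is mutated. Cells of 6 tracheas (5 for bgh) were pooled into the single library of each group. The deposited barcodes carry a library number from 1 to 4, and no source used here ties a number to a genotype. Libraries are therefore called by number, no mutant was compared with wild type, and every ratio is given as the median of the 4 libraries with its lowest and highest value and without a test.

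Oxidative phosphorylation runs on 5 complexes of the inner mitochondrial membrane. Complexes I, III and IV pump protons while electrons pass from NADH to oxygen, complex II feeds electrons from succinate, and complex V, the ATP synthase, uses the proton gradient to make ATP. Most subunits are encoded in the nucleus and imported, and 13 are encoded by the mitochondrial DNA (the mt- genes). Assembly factors build the complexes and are not part of the finished enzyme. In the airway, ciliated cells carry many mitochondria below the cilia, whose beating uses ATP. Secretory cells make the proteins of the airway lining fluid, and basal cells are the stem cells of the epithelium.

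After filtering, 19471 cells were kept, and clusters were named from markers as ciliated-like (4753 cells), secretory-like (6676), basal-like (5123), tuft-like (159), hillock-like (148), neuroendocrine-like (42) and ionocyte-like (41). The 10 ciliated, 8 secretory, 9 tuft and 5 hillock markers were all raised in the clusters of those names, and at least 6 of the 7 basal markers in each basal-like cluster. Clusters with markers of 2 lineages (2124 cells) and clusters with no name (345 cells) were left out of the classes. Lyz1 and Lyz2 were also among the leading genes of the ionocyte-like cluster. The 4 libraries held 39658153 to 53491773 unique molecular identifiers (UMIs, each 1 captured RNA molecule), and 52 barcode sequences occurred in more than 1 library. The genes mutated in the 3 lines gave, in ciliated-like cells of libraries 1 to 4, 79, 41, 0 and 52 UMIs for Cfap221, 773, 13, 466 and 582 for Cfap54 and 1059, 774, 976 and 1182 for Spef2. These counts were not used to assign genotypes.

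The members together took a larger share of UMIs in ciliated-like than in secretory-like or basal-like cells, and a larger one again in tuft-like cells. Their summed share of UMIs in libraries 1 to 4 was 2.29%, 2.53%, 2.32% and 2.35% in ciliated-like cells. It was 1.19%, 1.14%, 1.21% and 1.26% in secretory-like cells and 1.40%, 1.31%, 1.38% and 1.51% in basal-like cells. These 3 classes did not overlap, and their order was the same in each library. Hillock-like cells lay between basal-like and ciliated-like cells at 1.68% to 1.86%. A single member, Ndufa4, gave 3171 of the 19726 member UMIs of hillock-like cells, with the libraries summed. In basal-like cells Ndufa4 gave 9741 of 356668. The hillock-like share without Ndufa4 was not tested, so this position is not shown for the rest of the set. Tuft-like cells, the chemosensory cells of the airway, were higher than ciliated-like cells in each library, at 3.64%, 2.68%, 3.85% and 3.29%. Library 2, with the lowest tuft-like share, also stood apart in markers of other classes. Its 20 tuft-like cells had the 7 basal markers, summed, at 28.8% of their basal-like level and the 5 hillock markers at 22.5% of their hillock-like level, with none at 0. In the other libraries these were 1.21% to 13.3% and 0.290% to 3.10%, and their part in the tuft-like share was not tested. Over these 5 classes the widest exact binomial (Clopper-Pearson) 95% interval of a share was 3.53% to 3.74%, in tuft-like cells of library 1. Such intervals cover counting error only. Neuroendocrine-like cells had 2.35% to 2.92% and ionocyte-like cells 1.93% to 2.88%, which overlapped the ciliated-like range.

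**Figure D1:**
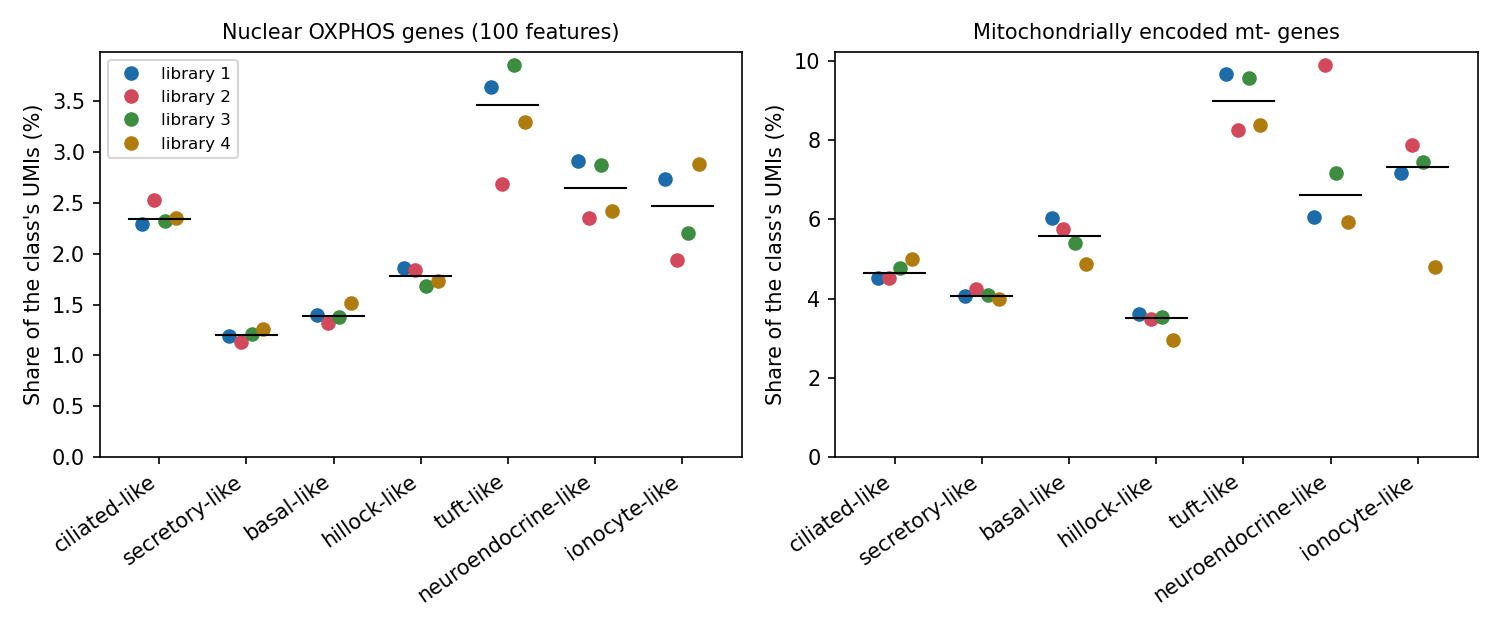
Share of each class's UMIs (y axis, percent) taken by the 100 nuclear features (left) and by the 13 mt- genes (right), 1 point per library and a line at the median of the 4 libraries, for 7 named classes (x axis). The ciliated-like points lie between 2.29% and 2.53% on the left, above every secretory-like and basal-like point, while on the right the ciliated-like points lie at 4.53% to 5.00%, near or below the basal-like points at 4.88% to 6.03%.

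The mt- genes did not follow the nuclear members. Their share was 4.53% to 5.00% in ciliated-like cells, 3.98% to 4.25% in secretory-like cells, 4.88% to 6.03% in basal-like cells and 8.27% to 9.67% in tuft-like cells. Per mt- UMI, ciliated-like cells held 0.470 to 0.559 nuclear UMIs, secretory-like cells 0.267 to 0.316 and tuft-like cells 0.324 to 0.402. On the log2 scale that ratio was 0.75 (0.57 to 1.06) higher in ciliated-like than in secretory-like cells and 1.03 (0.60 to 1.29) higher than in basal-like cells. This gap moved with depth: among cells of 8000 to 16000 UMIs it was 0.18 (-0.0097 to 0.27) and 0.38 (-0.044 to 0.53), so its sign then differed between libraries. The ciliated-like clusters ran from 0.319 nuclear UMIs per mt- UMI in the deepest to 5.16 in the shallowest. By the rule of at least 1.5-fold in the same direction in each of the 4 libraries, only mt-Atp8 (log2 0.91) and mt-Nd6 (1.16) of the 13 mt- genes were called higher in ciliated-like than in secretory-like cells, and none was called against basal-like cells. The sign of the summed mt- difference between ciliated-like and secretory-like cells depended on the setting. It was 0.19 over all cells and -0.25 among cells of 2000 to 8000 UMIs. When the total left out the 10 most abundant other genes and kept the mt- genes, it was -0.53. Tuft-like cells were high in both sets.

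Depth moved with the ciliated-like share. The median depth was 2520 UMIs in ciliated-like, 4076 in basal-like and 10899.5 in secretory-like cells. Ciliated-like cells of 500 to 2000 UMIs held 3.43% (3.32% to 3.58%) nuclear members, and those of 8000 to 16000 UMIs held 1.70% (1.62% to 1.79%). At that higher depth, secretory-like cells held 1.20% (1.12% to 1.26%) and basal-like cells 1.36% (1.24% to 1.43%), so the ciliated-like range still lay above the other 2, with a smaller gap, and the other 2 overlapped. The log2 ratio of the summed share fell from 0.94 to 0.52 against secretory-like cells and from 0.73 to 0.34 against basal-like cells. The ciliated-like class held 4 clusters that differ in depth, of which the deepest, with a median of 7359 UMIs, had 1.71% nuclear and 5.36% mt- UMIs. The shallowest, 273 cells with a median of 750 UMIs, had 4.77% nuclear and 0.925% mt- UMIs. Early response genes, which tissue digestion can induce, took 2.92% of UMIs in the largest ciliated-like cluster and 1.23% in the deepest. The part of the early response in the ciliated-like share was not tested.

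**Figure D2:**
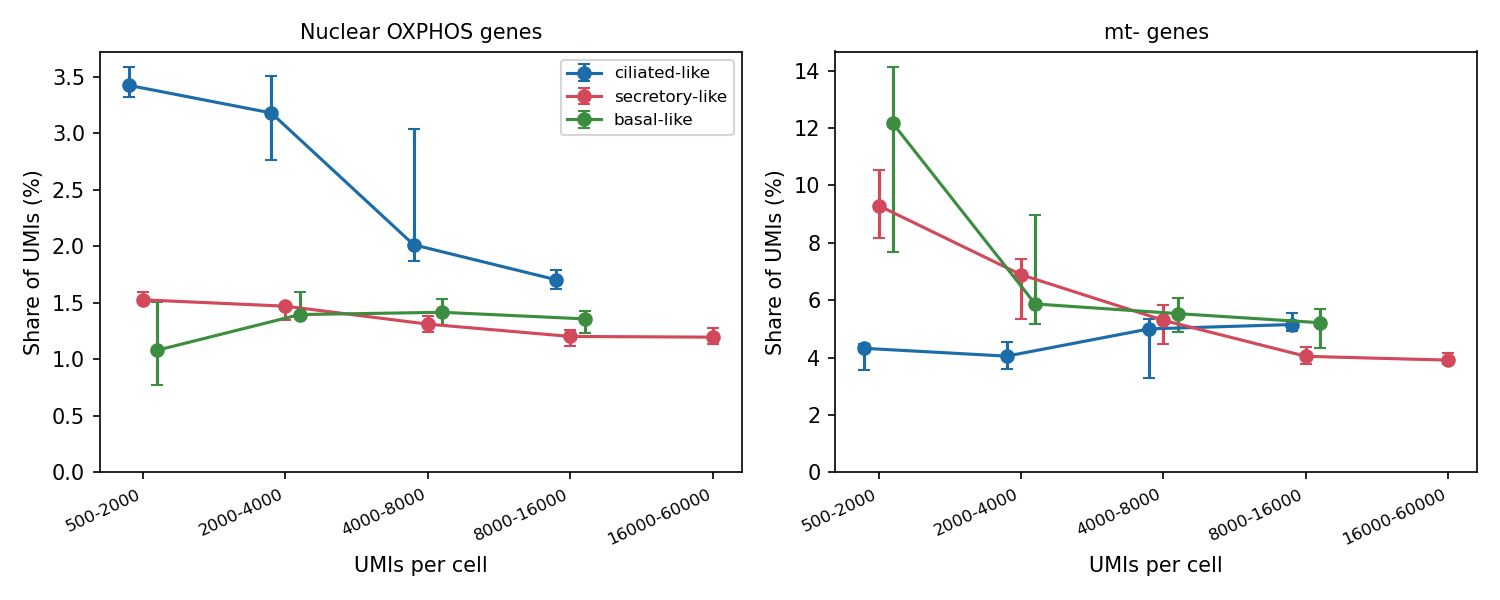
Share of UMIs (y axis, percent) of the nuclear members (left) and the mt- genes (right) by UMIs per cell (x axis), in ciliated-like, secretory-like and basal-like cells, with points at the median of the libraries and bars from the lowest to the highest library. The ciliated-like share of nuclear members runs from 3.43% in the shallowest cells to 1.70% at 8000 to 16000 UMIs, where secretory-like cells have 1.20% and basal-like cells 1.36%, while secretory-like and basal-like mt- shares are highest in the shallowest cells.

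Gene by gene, 92 of the 100 features had the 50 UMIs needed for a comparison, and 65 of the 92 were called higher in ciliated-like than in secretory-like cells. Of all 12184 genes tested, 43.6% were called higher in that comparison, and 0 members were called lower against 5.38% of all genes. Secretory-like cells spend much of their RNA on a few secreted proteins: their 8 markers took 33.0% to 53.2% of UMIs in the secretory-like clusters. Without the mt- genes and the 10 most abundant genes, the median log2 ratio of all genes moved from 0.72 to 0.09, 18 members were called higher and 2 lower, beside 22.9% of all genes called higher and 14.4% lower. Relative to the median of all genes, the members' median was 0.23 higher in the first scaling, 0.17 higher in the second and 0.26 lower (a difference of -0.26) among cells of 8000 to 16000 UMIs, so its direction flipped with depth. At that depth 28 of 92 members were called higher, beside 40.6% of all genes, and 1 lower, beside 4.3%.

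In basal-like cells the secretory markers took 1.75% to 2.64% of UMIs. Against these cells 45 of 92 members were called higher, beside 30% of all genes, and 2 were called lower, beside 16.2% of all genes. The members' median log2 ratio was 0.77 and that of all genes 0.26, a difference of 0.51, or 0.52 without the mt- and 10 most abundant genes. Among cells of 8000 to 16000 UMIs the difference was 0.15, with 26 of 90 members called higher beside 24.9% of all genes.

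A few assembly factors stood at the top of both comparisons. Summed over 12 genes, the assembly factors were 3.82-fold (3.73 to 4.11) higher in ciliated-like than in secretory-like cells and 3.38-fold (2.98 to 3.54) higher than in basal-like cells. These sums rest largely on Ndufaf3, Ndufaf8 and Sdhaf4. The median log2 ratio of the 12 was 1.14 and 0.93, beside 0.95 and 0.77 for all members. Of the 12, 6 and 7 were called higher, beside 43.6% and 30% of all genes. Against basal-like cells 1 was called lower, beside 16.2% of all genes. Ndufaf3, which acts early in building complex I, was counted in ciliated-like cells at 132, 147, 144 and 168 UMIs per 1000000 UMIs (CPM), in the order of libraries 1 to 4. It had 10.6, 12.4, 14.2 and 15.9 CPM in secretory-like cells and 7.33, 9.01, 12 and 13.1 CPM in basal-like cells. Every ciliated-like value was far above every value of the other 2 classes, and the log2 ratios were 3.40 (3.26 to 3.52) and 3.74 (3.49 to 4.0). The lowest ciliated-like cluster, the deepest one, had 94.9 CPM, the highest secretory-like cluster 29.97 CPM and the highest basal-like cluster 15.5 CPM. Among cells of 8000 to 16000 UMIs the ratios were still 2.95 and 3.05. In tuft-like cells Ndufaf3 was also high, at 123, 95, 109.6 and 106 CPM. Dalrd3, which neighbours Ndufaf3 in the reference annotation and was picked after its values were seen, had an 11.4-fold higher level in ciliated-like than in secretory-like cells. How reads were divided between the overlapping or adjacent genes is not given in the sources used here.

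Sdhaf4, an assembly factor of complex II that binds the flavin-carrying subunit Sdha, had 65.5, 72.6, 68.8 and 92.7 CPM in ciliated-like cells. It had 9.33, 8.75, 10.5 and 17.4 CPM in secretory-like cells and 3.96, 5.82, 8.02 and 13.1 CPM in basal-like cells. The ciliated-like values lay above all of the others, with log2 ratios of 2.64 and 3.19, while basal-like and secretory-like cells overlapped. Library 4 was the highest in all 3. Ndufaf8, a complex I assembly factor, had 127, 139.6, 131 and 139 CPM in ciliated-like cells against 24.8 to 29.8 in secretory-like and 20.1 to 27.4 in basal-like cells. Ndufaf6, also needed for complex I, had 18.7 to 25.1 CPM in ciliated-like cells and 2.43 to 3.84 in the other 2 classes. Ndufaf4 had 21.6 to 29.6 CPM in ciliated-like and 36.1 to 47.7 in basal-like cells (log2 -0.73) and was called lower there, and Ndufaf2 had a log2 ratio of -0.29 (-0.52 to -0.08) to basal-like cells and was not called. Ndufaf4 was no longer called lower among cells of 8000 to 16000 UMIs (log2 -0.40).

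**Figure D3:**
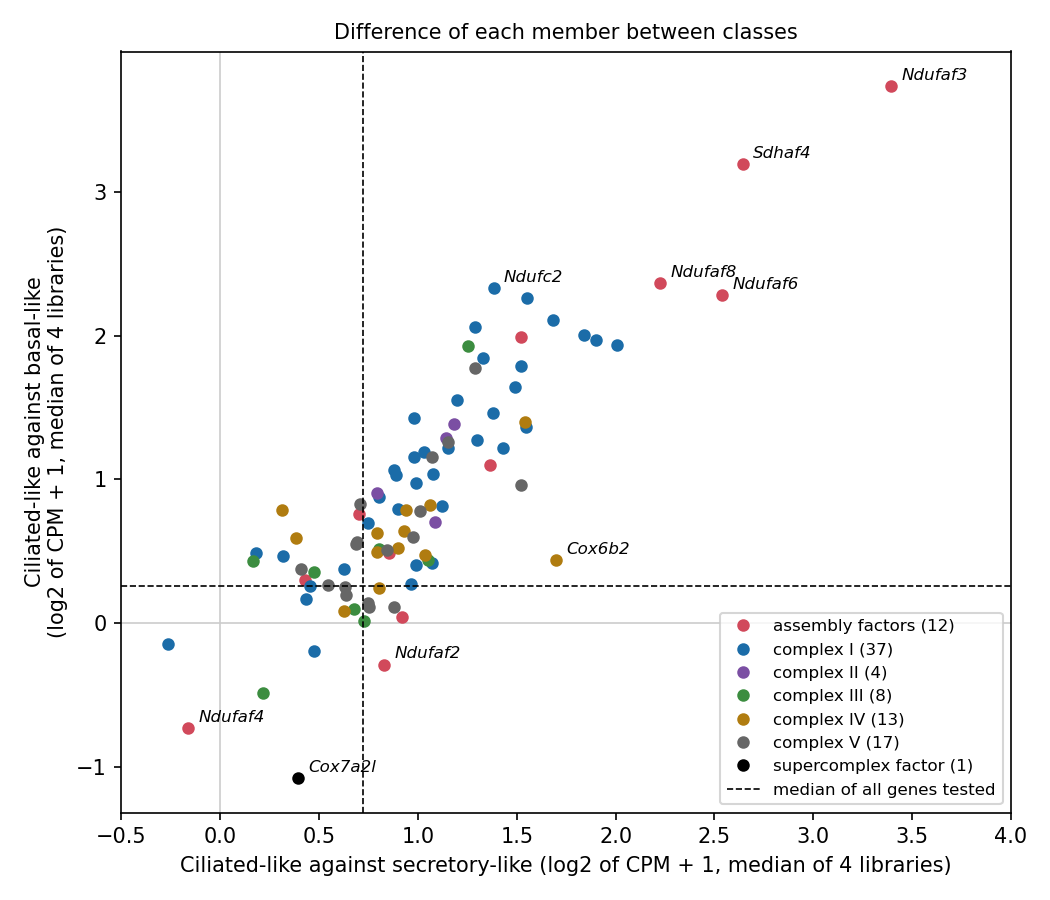
Each point is 1 of the 92 members tested, with its log2 ratio (CPM + 1, median of the 4 libraries) of ciliated-like to secretory-like cells on the x axis and of ciliated-like to basal-like cells on the y axis, coloured by complex, and dashed lines at the medians of all genes tested (0.72 and 0.26). Ndufaf3, Sdhaf4, Ndufaf6 and Ndufaf8 lie at the upper right and Cox7a2l lowest, at 0.39 and -1.08, and the position of all points along the x axis moves down with the scaling that leaves out the 10 most abundant genes.

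Members with many UMIs in their complex did not all share 1 class pattern. Cox4i1, a core nuclear subunit of complex IV, was at 1157, 1448, 1291 and 1468 CPM in ciliated-like cells, 555, 575, 650.1 and 727 in secretory-like cells and 811, 809, 953 and 1126 in basal-like cells, with no overlap between the classes. Atp5e, the epsilon subunit in the stalk of ATP synthase, had 676 to 837 CPM in ciliated-like, 296 to 385 in secretory-like and 271 to 347 in basal-like cells, of which the last 2 overlapped. Uqcrh, a hinge protein of complex III, did not separate ciliated-like cells from basal-like cells, at 488 to 574 and 473 to 591 CPM.

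Among the complexes, complex I showed the widest gap. Summed, its 38 genes were 2.20-fold (2.12 to 2.63) higher in ciliated-like than in secretory-like cells and 2.30-fold (2.13 to 2.78) higher than in basal-like cells. Of 37 tested members 28 and 26 were called higher, beside 43.6% and 30% of all genes. Ndufc2, an accessory subunit in the membrane arm, had 279.6, 303, 284 and 320.0 CPM in ciliated-like cells, 94.9 to 133 in secretory-like cells and 46.9 to 81.6 in basal-like cells. Its 3 classes did not overlap, and its log2 ratio to basal-like cells was 2.33 (1.96 to 2.66), or 1.95 among cells of 8000 to 16000 UMIs. Ndufb7, another accessory subunit, had log2 ratios of 1.55 and 2.26, and Ndufv3, a small subunit of the NADH-oxidizing module, 1.29 and 2.06. Ndufa5 went the other way, at -0.26 (-0.34 to -0.16) against secretory-like cells, and Ndufa1, whose log2 ratio of 0.18 ran from -0.07 to 0.42, overlapped between the classes. Neither was called.

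Complex II, 4 genes, was 2.07-fold and 2.04-fold higher in ciliated-like cells, with 4 and 3 of 4 called, beside 43.6% and 30% of all genes. The remaining complexes differed less. Complex III was 1.61-fold higher than in secretory-like and 1.36-fold higher than in basal-like cells, complex IV 1.88-fold and 1.54-fold, and complex V 1.81-fold and 1.47-fold. Of their tested members 4 of 8, 10 of 13 and 13 of 17 were called higher than in secretory-like cells, beside 43.6% of all genes. Against basal-like cells 1 of 8, 3 of 13 and 5 of 17 were called higher. None of these counts exceeded the 30% of all genes called higher in that comparison. Within complex III, the sum of the core proteins and the Rieske iron-sulfur protein was level with basal-like cells at 0.968-fold (0.950 to 1.02), and Uqcrfs1, the Rieske protein, had a log2 ratio of -0.49 (-0.52 to -0.43) that was not called. Uqcr10 had one of the smallest ratios to secretory-like cells, 0.16. In contrast Uqcr11, a small subunit of the same complex, was called higher than basal-like cells at 1.93 (1.58 to 2.57). All of these sums were smaller against secretory-like cells when the 10 most abundant genes were left out of the total, and single members then crossed 0: Atp5h, a subunit of the peripheral stalk of complex V, had -0.04.

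Promoter sequence was available from RefSeq (build GRCm38.p6, 250 bases before to 50 after each start) for 81 of the 99 member symbols, in 86 windows. Nuclear respiratory factor 1 (NRF1) and the ETS factor GABPA are known regulators of many of these genes. The NRF1 core letters CGCATGCG, a palindrome, were in 11 of 86 member windows (12.8%) and in 1.87% of all 32851 windows. The ETS letters CCGGAAGT, on either strand, were in 5 of 86 (5.81%) beside 3.89% of all windows. The YY1 letters AAGATGG, on either strand, were in 12 of 86 (13.95%) beside 6.34%, with 9 of the 12 matches wholly after the start. The X-box, which the RFX factors of ciliated cells read, was searched on the given strand only, so matches on the other strand were missed. On that strand it was in 0 of 86 beside 0.953%. Atp5j and Uqcr11 held 2 of these motifs each, which did not overlap. Members called higher in ciliated-like cells in both comparisons had 40 windows. Of these 5 (12.5%) held the NRF1 letters, beside 12.8% of all member windows. The ETS letters were in 3 (7.5%, beside 5.81%), the YY1 letters in 9 (22.5%, beside 13.95%) and the X-box in 0. Shown are the 150 bases before the start of the 2 members with the highest ciliated-like ratios. They are Ndufaf3 (chr9:108567437-108567586, minus strand) and Sdhaf4 (chr1:24005641-24005790, minus strand), in which none of these letters occurred on the strands searched. Beside them are 3 members that were also called higher in both comparisons and do hold a match, in capitals: Atp5k (chr5:108434400-108434549, minus strand) and Ndufa11 (chr17:56717612-56717761, plus strand) with the NRF1 letters, and Uqcr11 (chr10:80406822-80406971, minus strand) with the ETS letters and a further NRF1 match across its start that is not in capitals.
Ndufaf3: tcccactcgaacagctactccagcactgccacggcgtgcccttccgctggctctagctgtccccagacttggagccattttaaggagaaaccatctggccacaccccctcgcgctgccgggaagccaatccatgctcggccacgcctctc
Sdhaf4: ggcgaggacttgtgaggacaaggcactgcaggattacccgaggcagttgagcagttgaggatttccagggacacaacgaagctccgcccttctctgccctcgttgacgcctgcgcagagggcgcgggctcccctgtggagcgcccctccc
Atp5k: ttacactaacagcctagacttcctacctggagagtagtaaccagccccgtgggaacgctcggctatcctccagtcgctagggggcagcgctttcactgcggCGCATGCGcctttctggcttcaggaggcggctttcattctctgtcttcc
Ndufa11: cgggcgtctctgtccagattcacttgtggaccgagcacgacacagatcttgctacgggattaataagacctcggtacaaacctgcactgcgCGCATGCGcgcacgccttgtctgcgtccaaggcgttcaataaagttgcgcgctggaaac
Uqcr11: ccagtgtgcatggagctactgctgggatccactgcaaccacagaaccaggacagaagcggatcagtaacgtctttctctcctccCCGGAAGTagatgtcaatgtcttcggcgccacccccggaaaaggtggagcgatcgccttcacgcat
Of the bases in these windows 56.0% to 64.7% are G or C. A match of letters is a description, not a binding site, and its absence says only that these letters are not in the window on the strands searched.

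Basal-like and secretory-like cells were nearer to each other, and the direction of the set depended on the scaling. The summed members were 0.23 (0.18 to 0.27) higher in basal-like cells on the log2 scale, but -0.51 when the mt- and 10 most abundant genes were left out of the total. The split of calls moved with it, from 7 higher and 2 lower of 92 to 0 higher and 38 lower. The background was 30.3% called higher and 4.28% called lower, and 10.6% and 15.1% in the second scaling. Relative to the median of all genes, the members' median was lower in basal-like cells in both scalings, by differences of -0.34 and -0.45, and by -0.52 at 8000 to 16000 UMIs. The members called lower were Ndufc2 (-0.94) and Ndufb7 (-0.69). Among those called higher were Cox7a2l, Cox6b2 (1.18), Ndufaf2 (1.13), Atp5b (0.80), the catalytic beta subunit of complex V, Uqcrfs1 (0.69) and Atp5a1 (0.68), and under the second scaling none of the 7 was called higher.

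Cox7a2l differed most between basal-like cells and the others. Its protein joins complexes III and IV into supercomplexes, in contrast to the related Cox7a2, a subunit of complex IV itself. In basal-like cells Cox7a2l had 379, 383, 432 and 469 CPM, in ciliated-like cells 179, 189, 198 and 223, and in secretory-like cells 136, 143, 182 and 168. The basal-like values lay above all of the others, with a log2 ratio of ciliated-like to basal-like cells of -1.08 (-1.12 to -1.02) and of basal-like to secretory-like cells of 1.44 (1.24 to 1.48). At 8000 to 16000 UMIs these were -0.90 and 1.18. Tuft-like cells had 574, 612, 482 and 650.3 CPM, above all basal-like values, and hillock-like cells 159.8 to 234.

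**Figure D4:**
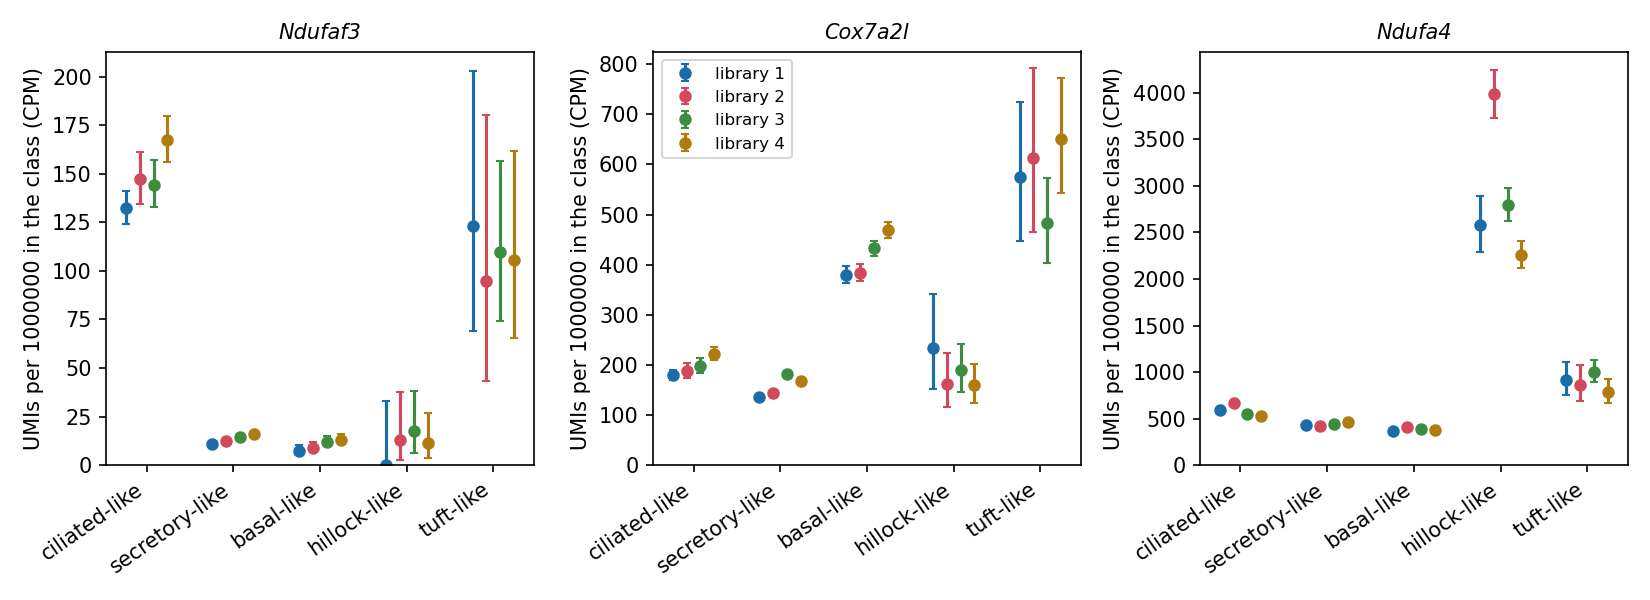
Level (y axis, CPM of the class, exact Poisson 95% intervals as bars) of Ndufaf3, Cox7a2l and Ndufa4 in each library (colours) and in 5 classes (x axis). Ndufaf3 separates ciliated-like cells (132 to 168 CPM) and tuft-like cells from the rest, Cox7a2l is higher in basal-like (379 to 469) than in ciliated-like and secretory-like cells, and Ndufa4 is highest in hillock-like cells in each library.

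Hillock-like cells, a squamous-like population that expresses Krt13 and Krt4, had 1 member far above its basal-like level. Ndufa4, first assigned to complex I and now to complex IV, had 2579, 3986, 2797 and 2259 CPM in hillock-like cells. It had 369.6 to 409.6 CPM in basal-like, 421 to 468 in secretory-like, 529 to 672 in ciliated-like and 786 to 1005 in tuft-like cells. Every hillock-like library was more than any library of the other classes, and the log2 ratio to basal-like cells was 2.83 (2.57 to 3.28). A UMI of Ndufa4 was found in 147 of 148 hillock-like cells, at a median depth of 6289.5 UMIs, and in 67.4% of basal-like cells, at 4076. Over 2000 CPM were reached by 56.8% of hillock-like cells and by 0.332% to 5.03% of the cells of the other 4 classes. The finer clustering at resolution 2, with 401 hillock-like cells, gave 2.05. Of all members, 4 of 91 members were called higher than in basal-like cells (7.33% of all genes) and 3 lower (12.1%). Besides Ndufa4 the higher ones were Uqcr11 (0.75), Uqcr10 (0.68) and Ndufa13 (0.66), and the lower ones were Cox7a2l (-1.21), Ndufaf4 (-0.87) and Cox6b2, which had 0 UMIs in hillock-like cells. The mt- genes were lower: 8 of 13 were called lower, and their sum was 0.607-fold (0.601 to 0.654). AA467197, a relative of Ndufa4 chosen after its values were seen, had 24 UMIs in hillock-like cells (21.3 CPM) and 0.316 CPM in basal-like cells. The summed ciliated markers in hillock-like cells were 3.23% to 6.58% of their ciliated-like level, and their part in the Ndufa4 level was not tested, while ciliated-like cells themselves had a lower Ndufa4 level.

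In tuft-like cells nearly the whole set was high. Against secretory-like cells 76 of 92 members were called higher, beside 29.8% of all genes, and 0 lower, beside 7.75%. The members' median log2 ratio was 1.5 and that of all genes 0.82, and without the mt- and 10 most abundant genes 0.81 and 0.18, with 28 called higher and 0 lower, beside 15.3% and 12.5% of all genes. Against ciliated-like cells 13 of 92 were called higher, beside 14.1% of all genes, which is the background, and 0 lower, beside 17.5%. The 13 were Sdhaf1 (2.16), an assembly factor of complex II, Ndufa5 (1.85), Cox7a2l (1.61), Ndufa1 (1.61), Ndufa10 (1.35), Ndufv3 (1.3), Sdha (1.24), the flavoprotein of complex II, Ndufs8 (1.24), Uqcr10 (1.23), Cox7a2 (1.22), Atp5c1 (1.17), Ndufaf4 (0.99) and Ndufs1 (0.98). The summed share of tuft-like cells was 1.5 log2 above secretory-like cells, 1.62 without library 2, or 0.89 at resolution 2, where 264 cells bore the name. In ionocyte-like cells, which regulate ions and carry Cftr, 22 of 92 members were called higher than in secretory-like cells, beside 11.7% of all genes, and 3 lower, beside 19.1%, from 41 cells.

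Where a subunit has alternative isoforms, the widely expressed form carried the family in these classes. Over all kept cells, Cox6a2 and Cox8b, the forms of heart and skeletal muscle, had 7 and 0 UMIs. Cox4i2 had 3 and the hypoxia-responsive Ndufa4l2 9, while Cox7b2 had 0, Cox8c 4 and Ndufb11b 2. In ciliated-like cells a count of 0 of 20699 Cox8 family UMIs allowed a share of up to 0.0178% (Clopper-Pearson, counting error only). Cox7a1, the muscle form, made up 0.137% to 0.874% of Cox7a UMIs in 5 classes. Cox6b2, known from testis, was detected: its share of Cox6b UMIs in libraries 1 to 4 was 2.60%, 1.84%, 2.43% and 3.11% in ciliated-like cells, 0.840%, 1.42%, 1.76% and 1.21% in secretory-like cells and 2.64%, 3.14%, 3.89% and 2.89% in basal-like cells. The secretory-like shares were below all of the ciliated-like and basal-like ones. It had 0 of 404 Cox6b UMIs in hillock-like cells, which allows up to 0.909%.

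The share of Cox7a2l among Cox7a UMIs showed the basal-like difference without any scaling to a total. It was 56.8%, 59.3%, 62.6% and 63.5% in basal-like cells, 37.4%, 40.5%, 47.1% and 46.2% in secretory-like cells and 31.6%, 31.1%, 33.2% and 38.8% in ciliated-like cells. Basal-like shares were above all secretory-like and ciliated-like ones, and in each library the ciliated-like share was the lowest of the 3 classes. Tuft-like cells, in which Cox7a2 was high as well, had 30.6% to 45.6%. The c-ring of ATP synthase is built from 1 mature protein made by 3 genes that differ in their import signals. Atp5g1 gave 28.6% to 29.8% of the family in ciliated-like cells, 25% to 28.3% in secretory-like, 23.1% to 28.3% in basal-like, 35.3% to 40.4% in tuft-like and 13.7% to 23.1% in hillock-like cells. In each library tuft-like cells had the highest and hillock-like cells the lowest share of the 5 classes. In these 5 classes Atp5g2 was the most counted form in each library except in tuft-like cells of libraries 2 and 3, where Atp5g1 was ahead.

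**Figure D5:**
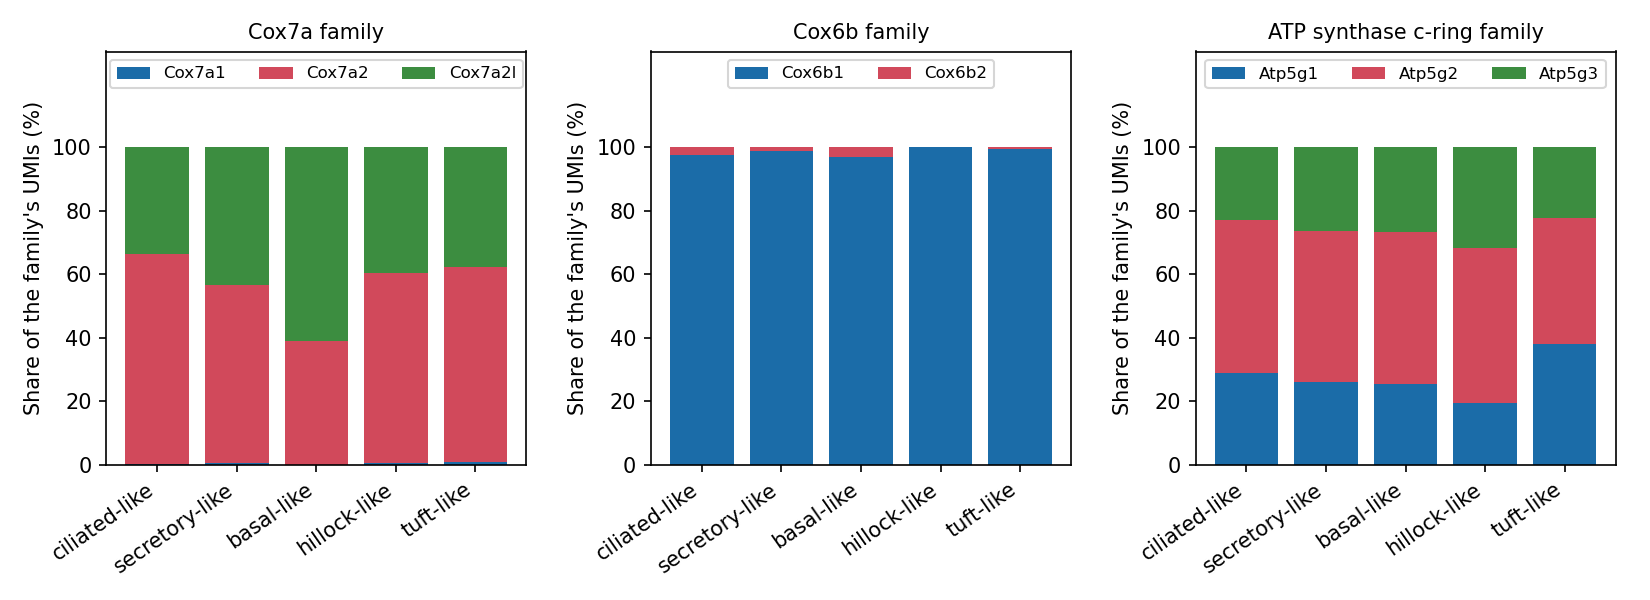
Share of each isoform (y axis, percent of the family's UMIs, 4 libraries summed) in 5 classes (x axis) for the Cox7a, Cox6b and c-ring families. Cox7a2l makes up 61.1% of Cox7a UMIs in basal-like and 33.7% in ciliated-like cells, Cox6b2 at most 3.18%, and Atp5g1 38.1% of c-ring UMIs in tuft-like cells.

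Between libraries, a member was counted as apart where its highest library was at least 1.5 times its lowest and the Poisson intervals did not overlap. In ciliated-like cells 4 of 90 members were apart (20.8% of all genes), in secretory-like cells 15 of 92 (28.3%) and in basal-like cells 22 of 89 (23.5%). The ciliated-like count changed with depth, to 45 among cells of 2000 to 8000 UMIs and 14 among cells of 8000 to 16000 UMIs. The shares of all genes apart in these depth windows are not given here, so these counts do not single out the members. The deepest ciliated-like cluster gave 46.1% to 65.0% of the class's UMIs by library. With 1 pool of animals per library, a genotype, a pool and a library cannot be told apart.

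Atp5md, a small membrane subunit of ATP synthase, was the 1 member apart in all 3 classes, with the same order in each. It had 416, 376, 300.03 and 237 CPM in ciliated-like cells, 143, 117, 105 and 84.2 in secretory-like cells and 215, 170.4, 158 and 121 in basal-like cells, so library 1 was highest and library 4 lowest in each. Its class order was also kept, with ciliated-like cells highest in every library (log2 1.52 to secretory-like and 0.96 to basal-like cells). Of the 22 basal-like members apart, 17 were highest in library 4 and 13 lowest in library 2, and 9 of the 15 secretory-like ones were highest in library 4. Sdhaf4 in basal-like cells had the widest range, 3.31-fold between libraries 4 and 1. The summed ciliated markers in basal-like cells were also highest in library 4 and lowest in library 2, at 1.28%, 0.833%, 1.11% and 1.48% of their ciliated-like level, and none of the 10 was at 0. Their part in the library differences was not tested. Other members with wide ranges were Sdhaf3, at 1.95-fold in ciliated-like cells from 3.14 to 6.12 CPM, and Ndufaf5 and Cox6b2, at 2.41-fold and 2.19-fold in secretory-like cells.

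Other mitochondrial genes outside the symbol rule were read from 12 lists. Against secretory-like cells, ciliated-like cells had 13 of 19 further complex IV assembly genes called higher, 5 of 6 for complex III, 4 of 8 for complex I and 2 of 4 for complex V. None was lower. Of all genes 43.6% were called higher and 5.38% lower, so the counts for complexes I and V were near that background. The lists were not recomputed without the 10 most abundant genes. The medians of the 4 lists were 1.07, 0.98, 0.67 and 0.97 beside 0.72 for all genes. The leading ones were Coa6 (3.43) and Sco2 (2.39), which deliver copper to complex IV, Nubpl (3.16), which supplies iron-sulfur clusters to complex I, and Atpaf1 (2.60), a chaperone of the ATP synthase head. Against basal-like cells the counts were 10 of 18, 3 of 6, 3 of 8 and 1 of 4, beside 30% of all genes, so the last 2 were near the background, with Coa6 at 3.43, Nubpl at 2.92 and Atpaf1 at 3.02. The tricarboxylic acid cycle had 10 of 14 genes called higher than in secretory-like and 5 of 14 than in basal-like cells, led by Suclg1 (2.08 and 2.5), beside 43.6% and 30% of all genes, and the second count is near that background.

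Glycolysis did not move as 1 group. Against basal-like cells 4 of 17 glycolytic genes were called higher and 1 lower, beside 30% and 16.2% of all genes, with a median of -0.13 beside 0.26 for all genes. Ldhb, the heart-type lactate dehydrogenase, had 3.77, and Hk2, a hexokinase, -3.00. Mitochondrial import and chaperone genes split as well, with 3 of 12 higher and 4 lower, beside 30% and 16.2% of all genes. The higher ones were led by Tomm7 (1.90) and the lower ones by Timm10 (-1.42). Of the 9 tested regulators of mitochondrial biogenesis, Esrra was called higher than basal-like cells (1.15) and 2 were lower, beside the same background. Among the 2 was the mitochondrial transcription factor Tfb2m (-2.10). Atpif1, the inhibitor of ATP synthase and picked after its values were seen, had 719 to 906 CPM in ciliated-like, 134 to 185 in secretory-like and 139 to 247 in basal-like cells, a 5.03-fold and 4.57-fold difference. Early response genes were higher in ciliated-like cells in 10 of 14 cases against secretory-like cells, beside 43.6% of all genes, with Fos at 5.04. Against basal-like cells 3 of 14 were called higher and 1 lower, beside 30% and 16.2% of all genes, with Fos at 2.19. Basal-like cells also had 10 of the 14 called higher than secretory-like cells and 2 lower, beside 30.3% and 4.28% of all genes.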

How the data were processed

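The deposited matrix held raw UMI counts per gene and barcode for 4 libraries, made with Cell Ranger 6.0.1 per the file headers and with build GRCm39 per the submitters' processing notes. The annotation release, the rule for reads shared by near-identical genes and any removal of free RNA are not given in the sources used here, and free RNA was not subtracted. Library totals are given in the report, and intervals (exact Poisson or Clopper-Pearson, 95%) cover counting error only.

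Cells with under 300 genes or over 20% mt- UMIs (1308) were left out, as were the 888 highest doublet scores (scanpy 1.11.5, 0.8% per 1000 cells, since the automatic threshold marked 0.0283% of cells). Leiden clustering (leidenalg 0.10.2) at resolution 1 used 2000 variable genes, 30 components and 15 neighbours, without the members and the mt- genes. A cluster needed 3 raised markers for a name, by a scoring rule set after the data were seen. One rare cluster was subdivided. UMIs were summed per class and library and scaled to 1000000 (CPM), with 1 CPM added for ratios. Genes needed 50 UMIs over both classes, or 100 UMIs in the class for the comparison between libraries. The code was tested on simulated counts.

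Named members are the 3 with most UMIs per complex, the 4 highest and 4 lowest per comparison, all isoforms, the 3 with the widest library range per class and, per pathway list, the 2 with the largest ratio; others named are called members or said to be picked later. One member is not reported by name here. The members and lists were chosen with earlier results of these data known. Alternatives were a marker gate, finer clustering, other pseudocounts, folds and totals, means over cells, each library left out and 2 windows of depth, the last added after the data were seen. Promoters are from RefSeq's GRCm38.p6, a build other than that of the counts, and no coordinate was carried across.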

Additional observations from a re-analysis of the deposited data

How the results depend on the processing

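Values are log2 class ratios (median of libraries) or counts of members. With means over cells, the nuclear share was 1.23 (ciliated-like to secretory-like) and 1.05 (to basal-like), the mt- share -0.014 and the nuclear to mt- ratio 1.247 and 1.49. With only the 10 most abundant genes left out of the total, the mt- share was -0.53 (ciliated-like to secretory-like) and -0.27 (basal-like to secretory-like). Without the mt- and 10 most abundant genes in the total, the nuclear share was 0.22 and -0.51 in the same order. Atp5h then had -0.043 and Uqcrfs1 (basal-like to secretory-like) -0.00061. The calls were then 18 higher and 2 lower (ciliated-like to secretory-like) and 0 and 38 (basal-like to secretory-like). At 2000 to 8000 UMIs, the mt- share was -0.25 (ciliated-like to secretory-like) and 0.067 (basal-like to secretory-like), and the nuclear to mt- ratio 1.15 and -0.027. The basal-like nuclear share was 0.092, with 4 members called higher beside 21.3% of all genes. In this window 45 ciliated-like members were apart between libraries. At 8000 to 16000 UMIs, the nuclear share was 0.52, 0.34 and 0.17 in the 3 comparisons. The mt- share was 0.33 and -0.032 for ciliated-like cells, and their nuclear to mt- ratio 0.18 and 0.38. Ciliated-like to secretory-like calls were 28 higher and 1 lower, beside 40.6% and 4.3% of all genes. To basal-like cells they were 26 and 1, beside 24.9% and 13.1%. Basal-like to secretory-like cells had 1 lower, beside 3.63%, and 14 ciliated-like members were apart between libraries. The marker gate left 1 lower call to basal-like and 1 to secretory-like cells, and 5 CPM added gave 4 basal-like calls. At resolution 2, Ndufa4 in hillock-like cells had 2.05 and the tuft-like share 0.89. A lower or a higher fold threshold gave 39 or 0 members apart in ciliated-like, 54 or 2 in secretory-like and 52 or 1 in basal-like cells. The shares of all genes apart at these thresholds and depths are not given here. Leaving out each library gave 2 to 4 basal-like lower calls, 4 without library 4. The cause of these changes was not tested. For the main results, 202 recomputed values stayed near the main value, 40 moved and 5 reversed. Near meant less than 1 standard deviation between libraries away or, for counts, within 1.5-fold. The tally includes the values with each library left out, which reuse the same libraries. The Cox7a2l, Cox6b2 and Atp5g1 shares were among the 202 under each setting run. Rare classes, with 14 to 71 cells per library in hillock-like and tuft-like cells, are limited by depth. Class ratios were taken within each library. Genotypes could not be paired because the labels give each genotype 1 library, which shares only the number 1 with the others, and no test was run.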
